A study of Mus musculus with 2 samples.

Results

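Notch pathway genes were examined for chromatin recovered with FLAG-tagged cyclin D1 in mouse fibroblasts. The set holds 10 genes: 4 receptors (Notch1, Notch2, Notch3 and Notch4), 3 ligands (Jag1, Jag2 and Dll1) and 3 genes for HES and HEY transcriptional repressors (Hes1, Hey1 and Heyl). They were chosen by name and located in the annotation of mouse build NCBIM37 (mm9), where all 10 were found among 22350 protein-coding genes of the autosomes and X. The rule used no tag counts, but the set was proposed with earlier results of these data known.

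The study consisted of 2 chromatin immunoprecipitation sequencing (ChIP-seq) libraries, 1 made with anti-FLAG M2 antibody, which binds the tag, and 1 with normal mouse IgG1 as the background control. Both came from untreated mouse embryonic 3T3 fibroblasts of genotype Ccnd1-/- that carried FLAG-cyclin D1 from the retroviral vector MSCV, so the deletion and the tagged protein were shared by both libraries. The labels describe the cells both as stably transfected and as transduced, and do not say whether they were 1 clone or a pool. A control without the FLAG tag was not analysed here. There were 9259840 mapped anti-FLAG tags and 9312346 mapped IgG tags. The genome-wide mean was 3.62 anti-FLAG and 3.64 IgG tags per kb. Each antibody had 1 library and so no replicate check: each p-value compares the tags of these 2 libraries, not the 2 antibodies in general, and every interval is at the 95% level and covers counting error only. Introns 1 to 3 of Ccnd1 held 0 tags in either library, against 17.9 and 18.0 expected at the genome mean, an upper limit of 0.605 tags per kb. Tags of immunoprecipitated DNA do not measure expression, so the labelled cell type was not checked by its markers.

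Notch receptors are membrane proteins that are cut when a Jagged or Delta-like ligand on a neighbouring cell binds them. The freed intracellular part enters the nucleus, joins the DNA-binding protein RBPJ with a Mastermind coactivator and switches on target genes, of which the HES and HEY repressors are the best known. Cyclin D1 activates CDK4 and CDK6 in G1 and has also been found on chromatin, where it has been reported upstream of Notch1 in the developing mouse retina.

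Hes1 was the only member called higher in anti-FLAG both around its start and over its whole length. Around the start only Hes1 and Notch2 had enough tags for the test. No member lay in or within 10 kb of an anti-FLAG region called from 500-bp windows, though the share over all genes was not counted. Recovery differed between the libraries with base composition, also far from transcription starts, and after correction for it 0 of the 2 member promoters with enough tags and 0 of the 10 gene bodies passed a test. In distant windows, 500 bp long and over 10 kb from every transcription start, anti-FLAG tags over scaled IgG tags came to 0.667 where GC was 22 to 24%. This ratio was 0.953 where GC was 40 to 42%, 1.34 where it was 50 to 52% and 2.23 where it was 60 to 62%, and it reached 3.32 in the stratum from 66 to 68%. The members' promoters were GC-rich: from 53.8% in Notch4 to 73.4% in Jag2, against a median of 51.1% over all protein-coding genes. Ratios below are given against IgG tags scaled by library totals. Where stated, they are also given with the expected tags multiplied by the ratio found in distant windows at equal GC, called the GC correction. Ratios of segments, exons, introns, upstream stretches and wider windows were not GC-corrected.

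The starts of 3 members need care, since protein-coding transcripts also or only begin downstream of the annotated 5′ end of the gene. The 5′ end of Hes1 belongs to a processed transcript, and its protein-coding transcript begins 956 bp further downstream. Of the 5 protein-coding transcripts of Notch1, 1 begins at the gene 5′ end, 1 begins 27 bp and 1 begins 7006 bp downstream of it, and 2 share a start 12841 bp downstream, which is also the RefSeq start and is called its coding start here. For Dll1 the coding start lies 896 bp downstream. The 250 bases before each start are shown for Hes1, the member past the promoter test, and for Notch1, the gene named in earlier work on cyclin D1. They were read from NCBIM37 and are written 5′ to 3′ on the strand of the gene. Capitals mark GTGGGAA, the core of the RBPJ site, or its reverse complement. The places are chr16:30065176-30065425 (plus strand) for the Hes1 coding start, chr16:30064220-30064469 for the Hes1 gene 5′ end, chr2:26359343-26359592 (minus strand) for the Notch1 coding start and chr2:26372184-26372433 for the Notch1 gene 5′ end.
Hes1 coding start: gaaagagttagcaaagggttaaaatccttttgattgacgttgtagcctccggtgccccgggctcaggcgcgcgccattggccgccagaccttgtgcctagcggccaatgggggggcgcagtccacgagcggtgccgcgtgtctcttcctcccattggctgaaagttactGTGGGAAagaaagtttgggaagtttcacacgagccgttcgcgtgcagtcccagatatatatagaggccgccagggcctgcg
Hes1 gene 5′ end: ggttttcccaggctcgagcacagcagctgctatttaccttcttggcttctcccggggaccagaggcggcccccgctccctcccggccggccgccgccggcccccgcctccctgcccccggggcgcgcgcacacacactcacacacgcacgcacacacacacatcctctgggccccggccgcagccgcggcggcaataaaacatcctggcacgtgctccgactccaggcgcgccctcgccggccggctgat
Notch1 coding start: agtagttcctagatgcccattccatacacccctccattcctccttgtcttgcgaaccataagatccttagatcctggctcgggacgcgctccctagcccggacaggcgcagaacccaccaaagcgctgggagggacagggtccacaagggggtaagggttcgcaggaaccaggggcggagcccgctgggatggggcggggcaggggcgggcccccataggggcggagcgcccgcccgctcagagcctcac
Notch1 gene 5′ end: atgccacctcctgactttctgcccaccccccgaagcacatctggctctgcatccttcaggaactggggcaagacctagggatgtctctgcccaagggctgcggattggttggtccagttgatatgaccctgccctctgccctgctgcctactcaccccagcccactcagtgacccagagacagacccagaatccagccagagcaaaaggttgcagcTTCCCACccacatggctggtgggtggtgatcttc

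Of these stretches, the one before the Hes1 coding start holds GTGGGAA on the coding strand, beginning 81 bases before the start, and the one before the Notch1 gene 5′ end holds it on the other strand, beginning 34 bases before. The other two hold none. From 250 bases before to 50 after the gene 5′ end, counting both strands, GTGGGAA was found in 2 of 10 members (Notch1 and Hey1), against 5.89% of all promoters of that length, and at the coding starts in 2 of 10 (Hes1 and Hey1), against 5.96%. CACGCG, a box bound by HES and HEY proteins, was in 5 of 10 members at the 5′ end and in 5 of 10 at the coding start, against 11.7% and 12% of all promoters. GGGCGG, the SP and KLF box, was in 4 of 10 and 6 of 10, against 43.5% and 44.7%. CACGTG, another HES and HEY box, was in 1 of 10 members (Hes1) at the 5′ end and in 0 of 10 at the coding start, against 7.79% and 7.75%. The AP-1 box TGANTCA was found in 2 of 10 members at the 5′ end and in 1 of 10 at the coding start, against 6.93% and 6.81%. An E2F box, which was the motif TTCCCGC, the motif TTGGCGC, the motif TTCGCGC or the motif TTGCCGC, was found in 3 of 10 and 2 of 10, against 11.4% and 11.7%. These matches describe letters only and were not related to tag counts. The shares over all promoters were not matched for GC content, in which the members' promoters lay above the median, and no difference in share was tested.

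The 2 starts of Notch1 differ in composition. The observed-to-expected CpG ratio in the 2 kb around the start was 0.193 at the gene 5′ end and 0.702 at the coding start. Among the other members that ratio was low at Notch4 (0.180) and Heyl (0.404) and highest at Jag2 (0.966).

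Promoter counts were taken from 1 kb before to 1 kb after the gene 5′ end. They were small: the 10 members held 113 anti-FLAG and 45 IgG tags in all, with a median of 10.5 and 4 per gene, against 11 and 7 over all protein-coding genes. The test, a 2-sided exact conditional binomial test with Benjamini-Hochberg adjustment over the whole genome, was run where both libraries together had at least 20 tags. Only Hes1 and Notch2 reached this, 2 of 10 members against 10947 of 22350 genes (48.98%). Of these 2, 1 was called higher in anti-FLAG, at an adjusted p under 0.05, and 0 were called lower. Over all tested promoters 29.7% were called higher and 0.0913% lower, so 1 of 2 is not a result about the set. In 9 of 10 members the anti-FLAG count was above the scaled IgG count, as it was in 17046 of 22350 genes. Jag2, with 2 tags in each library, was above by the scaling alone. The median log2 ratio, with 1 tag added to each count, was 1.04 over the 10 members and 0.59 over all genes, and with the GC correction 0.47 and 0.17.

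**Figure D1:**
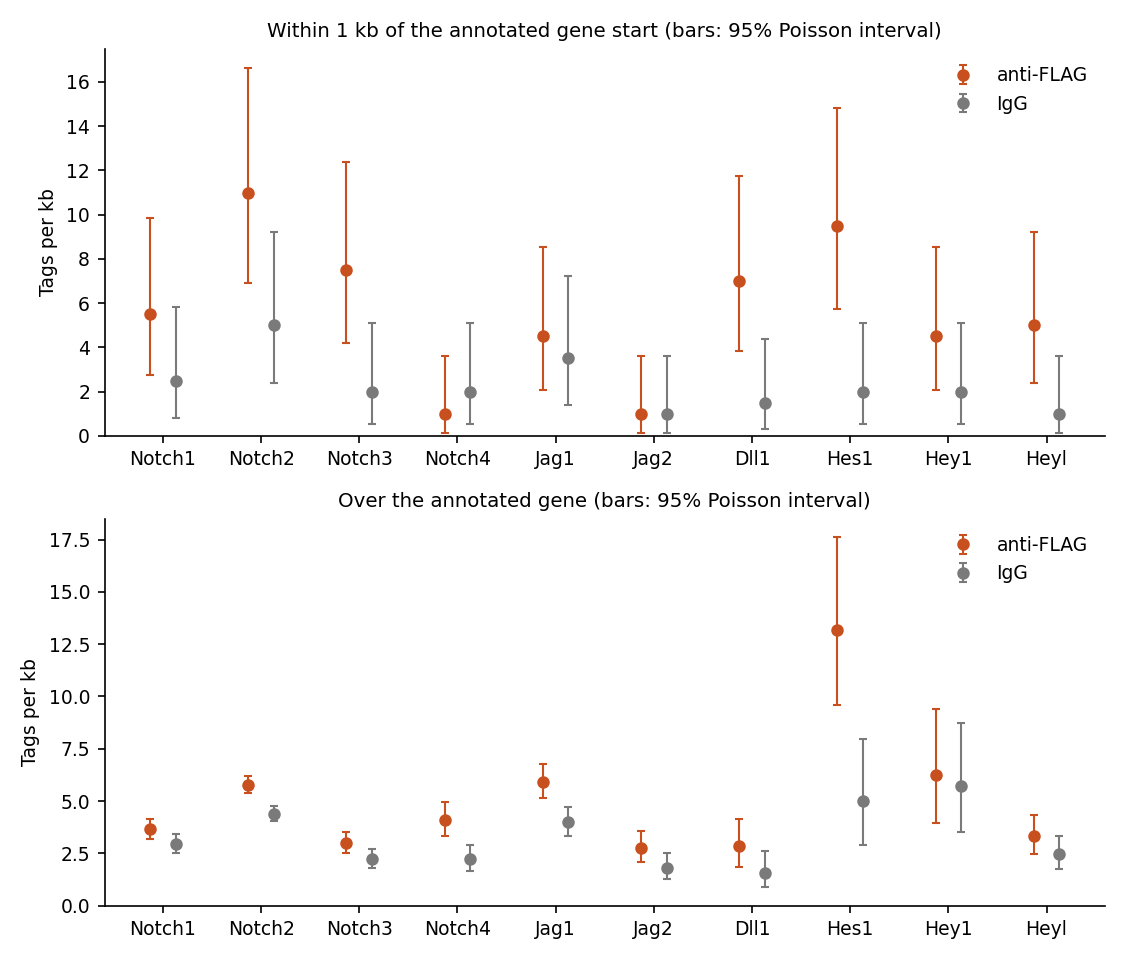
Tags per kb (vertical axis) of the 10 members in the anti-FLAG (orange) and IgG (grey) libraries, within 1 kb of the annotated gene start (upper panel) and over the annotated gene (lower panel), with exact Poisson 95% intervals as bars. Promoter intervals overlap between neighbouring genes, while over the gene body Hes1 stands above all other members at 13.2 anti-FLAG tags per kb.

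Among the receptors, Notch2 (ENSMUSG00000027878.9; chromosome 3, 97817461 to 97954290, plus strand, 34 exons) had the highest promoter count, 22 anti-FLAG and 10 IgG tags. Its ratio was 2.21 (1.01 to 5.23) and did not pass the exact binomial test after Benjamini-Hochberg adjustment (adjusted p = 0.0874). With the GC correction the ratio was 1.46 (0.665 to 3.46). Notch2 is a widely expressed receptor.

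Notch3 (ENSMUSG00000038146.7; chromosome 17, 32257765 to 32303825, minus strand, 33 exons), the receptor best known from vascular smooth muscle and pericytes, had 15 anti-FLAG and 4 IgG promoter tags. Its ratio was 3.77 (1.20 to 15.6), and 2.00 (0.638 to 8.29) with the GC correction, on fewer tags than the test required. Notch1 (ENSMUSG00000026923.8; chromosome 2, 26313423 to 26372183, minus strand, 34 exons in its longest coding transcript), the receptor required for T cell development, had 11 and 5 tags at its 5′ end. The ratio was 2.21 (0.709 to 8.12), with an interval that included 1. At the coding start shared by 2 of its 5 coding transcripts the counts were 10 and 8, and at another, 7006 bp downstream of the 5′ end, 10 and 6. The excess at the Notch1 5′ end was thus not seen at the same size at its other starts, though counts this small do not separate them. Notch4 (ENSMUSG00000015468.8; chromosome 17, 34701213 to 34725448, plus strand, 30 exons), a receptor of endothelial cells, was the only member with fewer anti-FLAG than IgG tags at its promoter, 2 and 4. Its ratio of 0.503 had an interval from 0.0455 to 3.51.

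Of the ligands, Dll1 had the largest promoter ratio. Dll1 (ENSMUSG00000014773.7; chromosome 17, 15504318 to 15513836, minus strand, 11 exons), a Delta-like ligand used in somite and neural development, had 14 anti-FLAG and 3 IgG tags, a ratio of 4.69 (1.31 to 25.5). Centred on its coding start the counts were 13 and 1. Within 500 bp of its 5′ end they were 9 and 0, too few for a test. No member had 20 tags in that narrower window, and of the 3013 promoters that did, 62.4% were higher. When the tag minimum was lowered to 10, Dll1 was called by the exact binomial test with Benjamini-Hochberg adjustment (adjusted p = 0.0459). At that setting 16.6% of tested promoters genome-wide were called higher. The GC-corrected ratio of Dll1 was 2.85 (0.796 to 15.5). A start of the non-coding gene A930024N18Rik lies within 2 kb of the Dll1 start, and unstranded ChIP tags there cannot be assigned to either gene.

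The Jagged ligands showed no excess at their promoters that these counts could resolve. Jag1 (ENSMUSG00000027276.7; chromosome 2, 136907192 to 136942380, minus strand, 26 exons), the ligand mutated in Alagille syndrome, had 9 anti-FLAG and 7 IgG tags, a ratio of 1.29 (0.429 to 4.09), which was 0.513 (0.170 to 1.62) with the GC correction. Jag2 (ENSMUSG00000002799.5; chromosome 12, 114146801 to 114167706, minus strand, 26 exons) had 2 tags in each library. At 73.4% GC its window lies above 68%, the upper edge of the highest stratum measured, whose ratio was used for its GC correction where needed. It had the highest GC content of the members and, with Notch4, the fewest tags, so a difference there was not detectable at this depth.

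Of the HES and HEY repressors, Hes1 (ENSMUSG00000022528.7; chromosome 16, 30064470 to 30067882, plus strand, 4 exons) was the member called higher. It encodes a basic helix-loop-helix repressor and is a direct target of Notch signalling. Its 5′ end window held 19 anti-FLAG and 4 IgG tags. The ratio was 4.78 (1.59 to 19.3), higher by the exact binomial test (Benjamini-Hochberg adjusted p = 0.0108). The excess lay mostly downstream of the 5′ end, where the 500 bp centred 750 bp downstream held 11 and 2 tags. That bin lies almost wholly before the coding start, 956 bp downstream. The 500 bp centred 250 bp upstream of the 5′ end held 3 and 0. Around the coding start, a window chosen after seeing the data, the counts were 27 and 11. There the adjusted p was 0.0352 by the same exact test, where 30.2% of tested promoters were called higher. With the GC correction it was 0.436 by that test, where 1.24% of tested promoters were. At the 5′ end the GC-corrected ratio was 2.39 (0.794 to 9.66) and was not called (adjusted p = 0.470 by the exact test). At that setting 1.26% of tested promoters were called higher. The unadjusted exact p of Hes1 was then 0.123, and that of Notch2 0.370.

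Hey1 (ENSMUSG00000040289.3; chromosome 3, 8663362 to 8667039, minus strand, 5 exons) and Heyl (ENSMUSG00000032744.4; chromosome 4, 122910799 to 122927118, plus strand, 5 exons) encode related basic helix-loop-helix repressors. Hey1 had 9 anti-FLAG and 4 IgG promoter tags, a ratio of 2.26 (0.632 to 10.1). Heyl had 10 and 2, a ratio of 5.03 (1.07 to 47.2). Heyl thus had a ratio as large as that of Hes1 on fewer tags, and neither it nor Hey1 had enough for the test. With the GC correction the ratio of Hey1 was 1.28 (0.356 to 5.67) and that of Heyl 3.18 (0.678 to 29.9), above the 2.39 of Hes1. The intervals of both included 1, as did those of all 10 members.

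Wider windows brought all 10 members above the tag minimum. Within 2.5 kb of the 5′ end, Hes1 had 48 anti-FLAG and 21 IgG tags and was higher by the exact binomial test (Benjamini-Hochberg adjusted p = 0.0183). Hey1 had 31 and 12 and was also higher (adjusted p = 0.0397 by the exact test). The other 8 were not called, and 10.5% of tested promoters genome-wide were called higher at this width. Notch1 had 19 tags in each library at this width. Notch2 had 47 and 28, Notch3 had 25 and 11, and Notch4 had 17 and 7. Of the ligands, Jag1 had 40 and 26, Jag2 had 15 and 13 and Dll1 had 32 and 17. Heyl had 21 and 10. All 10 members had more anti-FLAG than scaled IgG tags at this width, Notch1 by the scaling alone, as did 16388 of 22350 genes.

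**Figure D2:**
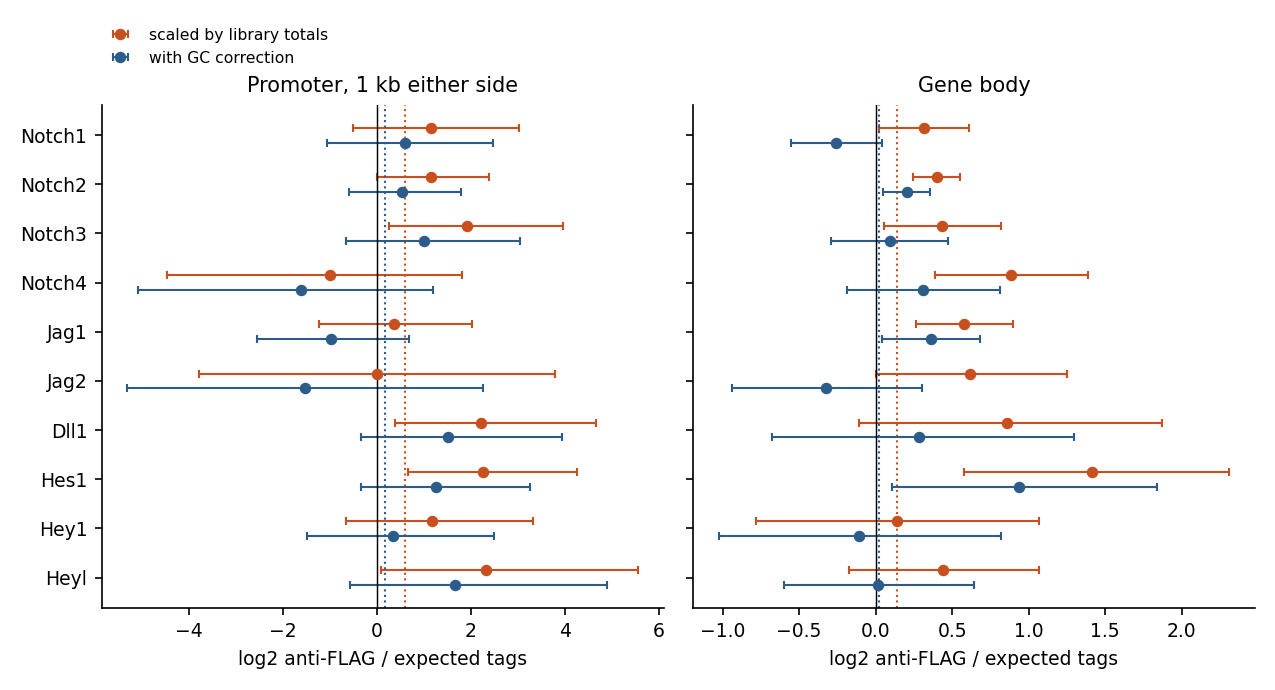
Log2 of anti-FLAG over expected tags (horizontal axes) for each member at the promoter (left) and over the gene body (right), with IgG scaled by library totals (orange) or with the GC correction (blue). Bars are exact 95% intervals, dotted lines the medians of all protein-coding genes with 1 tag added to each count, and the members' own points have no tag added. At the promoter every blue interval spans 0, and Hes1 moves from a ratio of 4.78 to 2.39.

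Ordered by anti-FLAG tags per kb, the promoters ran from Notch2 (11) and Hes1 (9.5) through Notch3 (7.5), Dll1 (7.0), Notch1 (5.5), Heyl (5.0), and Hey1 and Jag1 (4.5 each) to Notch4 and Jag2 (1.0 each). No neighbours in this order differed beyond their Poisson intervals.

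The profile around the start was compared with that of the genome by description only. Averaged over all protein-coding genes, anti-FLAG tags per 500 bp peaked at 4.23 just before the start, where IgG had 2.02. Over the 10 members the same bin held 2.80 and 0.70, and the highest anti-FLAG values were 4.10 in the bin centred 1250 bp upstream and 3.90 in the bin centred 750 bp downstream. In the upstream bin the 10 members had 41 anti-FLAG and 26 IgG tags in all. Dll1 gave 8 and 7 of these, Jag1 gave 7 and 6 and Notch1 gave 6 and 2, and in Notch2 (4 and 6) and Jag2 (1 and 2) IgG had more. The other 5 members had 2 to 5 anti-FLAG and 0 or 1 IgG tags each. With 10 genes these means rest on few tags, and they were not tested against the genome.

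**Figure D3:**
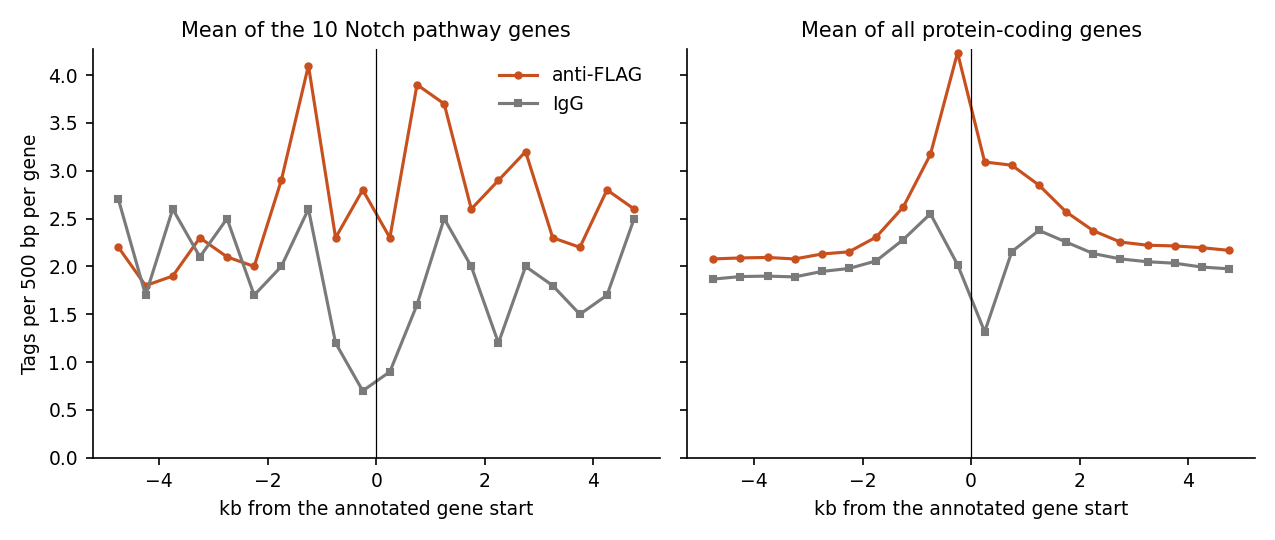
Mean tags per 500 bp and gene (vertical axis) against distance from the annotated gene start in kb (horizontal axis), for the 10 members (left) and all protein-coding genes (right), anti-FLAG in orange and IgG in grey. The genome-wide anti-FLAG mean peaks at 4.23 just before the start, while the members have 2.80 there and no single peak.

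**Figure D4:**
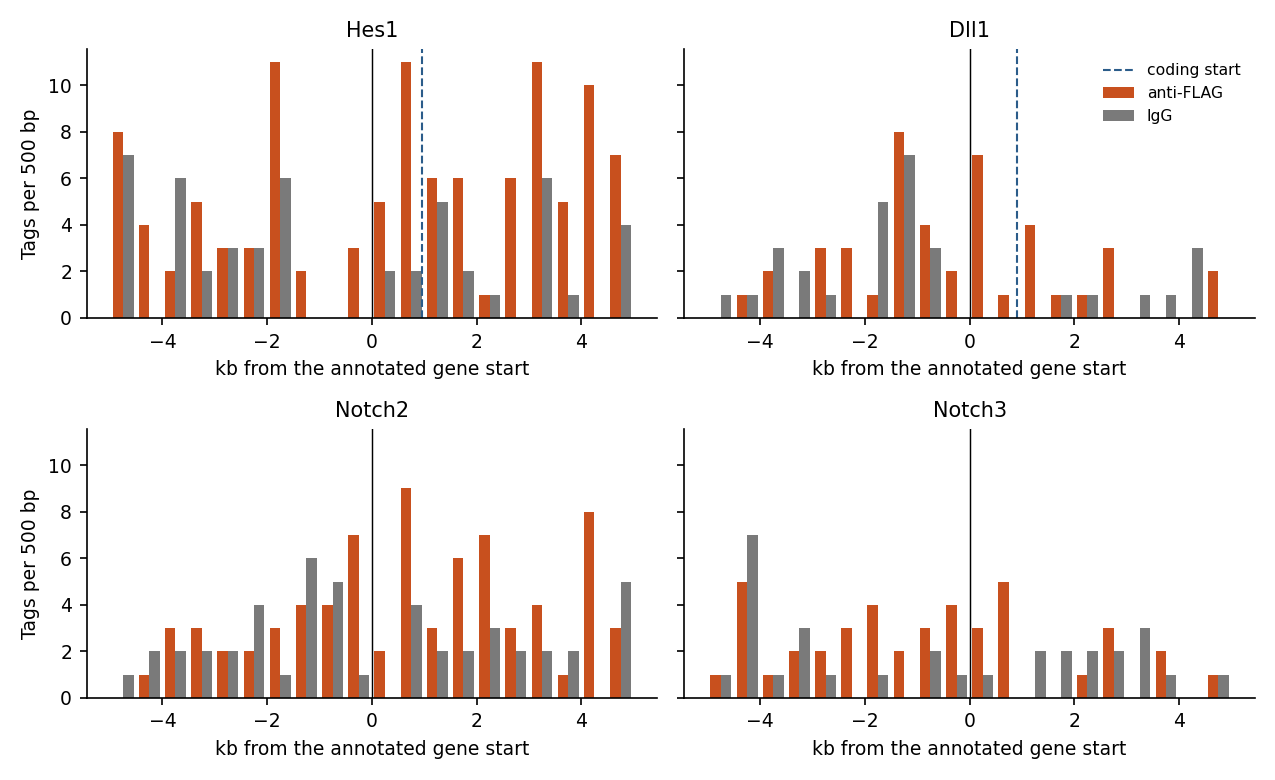
Tags per 500 bp (vertical axis) in anti-FLAG (orange) and IgG (grey) against distance from the annotated gene start in kb (horizontal axis) for Hes1, Dll1, Notch2 and Notch3. The dashed line marks the protein-coding start where it differs, and at Hes1 the bin centred 750 bp downstream held 11 and 2 tags.

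Gene bodies gave larger counts. Other annotated genes overlap the spans of Notch1 (0610009E02Rik and Gm13568), Notch3 (Gm17276), Notch4 (Gm20462) and Dll1 (A930024N18Rik), and ChIP tags there belong to both. Over the whole annotated gene all 10 members had more anti-FLAG tags than scaled IgG tags, as did 14384 of 22350 genes, although Notch1, Jag2 and Hey1 lay below expectation with the GC correction. Of the members 4 of 10 were higher by the exact binomial test with Benjamini-Hochberg adjustment, 0 lower: Notch2, Notch4, Jag1 and Hes1. Over all tested gene bodies 15.2% were called higher and 3.76% lower. The median log2 ratio was 0.50 in the members and 0.14 over all genes, and with the GC correction it was 0.15 and 0.02. With that correction 0 of 10 members and 0.836% of all tested gene bodies were called higher. When IgG was scaled by low-count 10-kb bins instead, 7 of 10 members and 27.9% of all tested gene bodies were called higher.

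Notch2 is the longest member, 137 kb, and so had the narrowest interval: 789 anti-FLAG and 602 IgG tags, a ratio of 1.32 (1.18 to 1.47; adjusted p = 1.3e-05 by the exact binomial test). With the GC correction the ratio was 1.15 (1.03 to 1.28), which was not called (adjusted p = 0.220 by the exact test). Tags in Notch2 were not spread evenly from the 5′ end to the 3′ end. The gene was divided into 5 equal segments from its start. Segment 1 had 207 and 130 tags and segment 2 had 247 and 165, ratios of 1.60 and 1.51. Segments 3 to 5 had ratios from 1.06 to 1.18, so the ratio was higher in the 5′ part, and the difference between segments was not tested.

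Notch4 had 99 anti-FLAG and 54 IgG tags over its 24.2 kb, a ratio of 1.84 (1.31 to 2.62; adjusted p = 0.0034 by the exact binomial test). Its promoter, with 2 and 4 tags, was the only one below IgG, and whether promoter and body differed could not be tested at these counts. Of its 5 equal segments, segment 1 held 18 and 6 tags, segment 2 held 22 and 8, segment 3 held 15 and 18 and segment 5 held 30 and 14. The GC-corrected ratio was 1.24 (0.880 to 1.76; adjusted p = 0.717 by the exact test). The other receptors did not pass. Notch1 had 214 and 173 tags over 58.8 kb, a ratio of 1.24 (adjusted p = 0.119 by the exact test), which turned to 0.837 (0.682 to 1.03) with the GC correction. Its exons held 55 and 37 tags and its introns 159 and 136. Notch3 had 137 and 102 over 46.1 kb, a ratio of 1.35 (adjusted p = 0.0944 by the exact test). In Notch1 it was segment 1, at the 5′ end, that had no excess, with 52 anti-FLAG and 55 IgG tags, while segments 2 to 5 had ratios from 1.32 to 1.49.

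Jag1 had 208 anti-FLAG and 140 IgG tags over 35.2 kb, a ratio of 1.49 (1.20 to 1.86; adjusted p = 0.0034 by the exact binomial test). In introns (175 and 116 tags) the ratio was 1.52 (1.19 to 1.94). In exons (33 and 24) it was 1.38 (0.793 to 2.45), an interval that included 1. Over the whole gene the GC-corrected ratio was 1.28 (1.03 to 1.60; adjusted p = 0.332 by the exact test). At its promoter the uncorrected ratio had been 1.29 on 16 tags, too few to say whether promoter and body differed. Jag2 had 58 and 38 tags over 20.9 kb, a ratio of 1.54 (adjusted p = 0.139 by the exact test) that turned to 0.799 (0.522 to 1.24) with the GC correction. Jag2 exons were nearly bare, with 4 anti-FLAG and 3 IgG tags over 4.05 kb. Dll1 had 27 and 15 tags over 9.52 kb (adjusted p = 0.190 by the exact test), and 13 of the 27 anti-FLAG tags but 1 of the 15 IgG tags lay in segment 1 of 5.

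Hes1 had 45 anti-FLAG and 17 IgG tags over its 3.41 kb, the highest level of any member. The ratio was 2.66 (1.49 to 4.96; adjusted p = 0.0041 by the exact binomial test), and it was 1.92 (1.08 to 3.57; adjusted p = 0.309 by the exact test) with the GC correction. Along the gene the ratio ran from 2.41 to 3.02 in the 5 segments, on 3 to 14 anti-FLAG and 1 to 5 IgG tags each. It was 2.72 (1.27 to 6.29) in exons and 2.59 (1.03 to 7.33) in introns. Counts this small do not show whether the ratio was even. Since Hes1 is short, its promoter and body windows share tags. From 1 kb downstream to the 3′ end it had 29 and 13 tags and no longer passed (adjusted p = 0.0727 by the exact test). Over this stretch 11.8% of tested genes were called higher.

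Hey1, also a short gene, did not pass. It had 23 anti-FLAG and 21 IgG tags over 3.68 kb, a ratio of 1.10 (0.583 to 2.09). Segments 1 and 2 together held 13 and 5 tags, and segments 3 to 5 held 10 and 16. Heyl had 54 and 40 tags over 16.3 kb, a ratio of 1.36 (0.886 to 2.10; adjusted p = 0.325 by the exact test). Ordered by anti-FLAG tags per kb of gene, Hes1 at 13.2 (9.62 to 17.6) was separate from the next member, Hey1 at 6.25 (3.96 to 9.38). Jag1 (5.91) and Notch2 (5.77) followed, and Notch2 was separate from Notch4 (4.08). Below these came Notch1 (3.64), Heyl (3.31), Notch3 (2.97), Dll1 (2.84) and Jag2 (2.77), whose neighbours did not differ beyond their intervals.

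The surroundings of Hes1 were also high in both libraries. From 1 to 10 kb upstream of its 5′ end it had 86 anti-FLAG and 66 IgG tags, or 9.56 and 7.33 per kb, about as many anti-FLAG tags per kb as at the promoter. In the 1 Mb around it the means were 5.17 and 4.16 per kb. The ratio upstream was 1.31 (0.940 to 1.83). The stretch upstream of Hes1 thus had a raised tag density that IgG shared. At the promoter IgG was lower, 1.999 tags per kb on 4 tags, below its genome mean of 3.64, and over the gene body it was 4.98. In the window at the gene 5′ end, the higher ratio than upstream thus went with fewer IgG tags per kb, not with more anti-FLAG tags. This holds for that window only. The gene body had 13.2 anti-FLAG tags per kb, and the window around the coding start held 27 anti-FLAG and 11 IgG tags. Whether these differed from the upstream stretch was not tested. The part of the upstream density in the order of levels was not tested. Jag1 came next in upstream IgG density, at 6.56 tags per kb, and the other members lay between 2.22 and 5.00. For all 10 members the ratio from 1 to 10 kb upstream had an interval that included 1, with Notch1 at 36 and 35 tags.

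Whether a promoter ratio exceeded that of the gene further downstream was tested with a 2-sided Fisher exact test where both parts held at least 20 tags, which Hes1 and Notch2 did. Neither was called: the log2 difference was 0.90 in Hes1 (Benjamini-Hochberg adjusted p = 0.589) and 0.69 in Notch2 (adjusted p = 0.412, both by the exact test). Genome-wide 11.4% of tested genes were called higher at the promoter. After GC correction the differences were 0.41 and 0.28. The downstream part ran from 1 kb after the gene 5′ end, and the Hes1 coding start lies 956 bp after that end. The Hes1 test thus could not separate the surroundings of its coding start from its body.

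Anti-FLAG regions were merged 500-bp windows that had 10 or more anti-FLAG tags, exceeded the local background 2-fold or more and had a p under 1e-05 in an exact Poisson test (one-sided). Of 5939 such regions in the genome, 0 overlapped a member or its 10 kb on either side. The same was so at p under 1e-07 (2338 regions) and with the GC correction (3955 regions). The share of all genes with a region in such a span was not counted, so the 0 is not a result about the set. With 1-kb windows, 1 of 6546 regions fell in a member. It lay at chr17:34723251-34724250, near the 3′ end of Notch4, with 15 anti-FLAG and 2 IgG tags, 4.14-fold over background (exact Poisson p = 6.4e-06).

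The richest 500-bp windows of some members exceeded the minimum of 10 tags, but none passed the fold and p thresholds of a region as well. The highest were in Jag1, with 13 anti-FLAG and 0 IgG tags centred 2380 bp downstream of its start, and in Notch2, with 13 and 6 tags 8289 bp downstream. Hes1 had 12 and 2 at 780 bp downstream, in a window that spans its coding start. Notch1 had 11 and 1 at 8933 bp downstream, in the stretch between its 5′ end and the coding start 12841 bp downstream. These windows were picked as the highest of 95 to 629 windows per gene, so their counts carry no test.

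Other genes of the pathway were counted from a list of 63, all found in the annotation. At their promoters 44 had enough tags, and 16 of these were higher by the exact binomial test with Benjamini-Hochberg adjustment over the genome, 0 lower and 28 not called, next to the 29.7% called higher genome-wide. The median log2 ratio of the 63 was 1.01, close to that of the 10 members, and 0.26 with the GC correction. By role, 5 of 10 tested genes of endocytosis and turnover were higher (14 in the list), 5 of 12 tested repressors of RBPJ or HES (12 in the list) and 3 of 8 tested cleavage genes (10 in the list). Of the glycosyltransferases 1 of 3 tested was higher (5 in the list), of the nuclear complex 1 of 8 (10 in the list) and of the other HES and HEY genes 1 of 3 (7 in the list). None of the 5 further ligand genes had 20 tags, among them Dll4, with 11 anti-FLAG and 4 IgG tags.

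The gene of smallest p was Cir1, a corepressor that binds RBPJ. Its promoter had 40 anti-FLAG and 11 IgG tags, a ratio of 3.66 (1.84 to 7.90; adjusted p = 0.00125 by the exact binomial test). It was the 1 gene of the list that passed with the GC correction, where 1.26% of tested promoters were called higher. Its ratio was then 3.08 (1.55 to 6.66; adjusted p = 0.0378 by the exact test). The start of Scrn3 lies within 2 kb, so these tags may belong to either promoter. Among the repressors, Tle4, a Groucho-type partner of HES proteins, had 23 and 4 tags, and Spen, a corepressor of RBPJ, had 19 and 3. Among the ubiquitin ligases and adaptors, Dtx3 had 24 and 4 (the start of F420014N23Rik is within 2 kb), Dtx4 had 37 and 11 and Mib2, which ubiquitinates Notch ligands, had 22 and 4. Numb, an inhibitor of Notch, had 27 and 8 at its gene 5′ end, but 17 and 8 at its coding start, where it was not called (adjusted p = 0.151 by the exact test). Ncstn, a subunit of the gamma-secretase that cuts the receptors, had 33 and 10 and shares its region with the start of Copa. At the gene 5′ end the adjusted p-values of these other 7 ran from 0.00221 to 0.00960 by the exact binomial test.

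In the nuclear complex 1 of the 8 tested promoters was higher. Rbpj itself, the DNA-binding member, had 13 anti-FLAG and 12 IgG tags at its gene 5′ end (adjusted p = 0.901 by the exact binomial test). At its coding start it had 13 and 3, a ratio of 4.36 (1.20 to 23.8) on too few tags for the test, so its value depended on the start chosen. Of the Mastermind genes, Maml3 was higher, with 25 and 10 tags (adjusted p = 0.0402 by the exact test), while Maml1 with 17 and 12 and Maml2 with 16 and 5 were not called. Rbpj, the Mastermind genes and Dll4 were named for their role after their values were seen.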

How the data were processed

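The deposited files give the position and strand of each mapped tag of 1 anti-FLAG and 1 IgG library. Their deposited score was 512 on each line and went unused. Aligner, genome build and filters: not given in the sources used here. All tags were 36 bp long, 0 shared position and strand within a library, and 0 lay wholly in gaps of NCBIM37, the build used for annotation and sequence. Chromatin was fixed in 1% formaldehyde for 15 min and sheared to 300 to 500 bp, per the labels' protocols.

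Members and lists were chosen with earlier results of these data known. Tags were moved 76 bp downstream and counted on 19 autosomes and X. The factor for IgG tags was 0.994, from the totals of both libraries. For regions, the expected count was the highest of 4 values: the genome mean and the scaled IgG density of the window itself, of 5 kb and of 10 kb. GC strata were 2 points wide, from 500-bp windows. Named genes were all members, the 8 list genes of smallest p and those past the GC correction. RefSeq starts came from GRCm38.p6 promoter sequences that matched NCBIM37 exactly, for 7 of 10 members. Counts and tests used Python 3.11.15, NumPy 2.4.6, SciPy 1.17.1 and pandas 2.3.3, and were checked on simulated data. Alternatives changed the scaling, window, tag minimum, tag shift, pseudocount, start and GC correction.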

Additional observations from a re-analysis of the deposited data

How the results depend on the processing

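With 1 library per antibody no replicate could be left out. No paired analysis was possible because each antibody has 1 library. The count of member promoters called higher, 1 as reported, was 0 with the GC correction, 0 within 500 bp (where 0 members had 20 tags), 2 within 2.5 kb and 2 with at least 10 tags. The list of 63 gave 16 as reported, 1 with the GC correction and 5 within 500 bp (of 9 tested). With coding starts and the GC correction together, chosen after seeing the data, these counts were 0 and 1. Gene bodies called higher numbered 4 as reported, 7 when scaled by low-count 10-kb bins (factor 0.909, which raised every log2 ratio by 0.13), with Notch1, Notch3 and Jag2 added, and 0 with the GC correction. Regions in or near members numbered 0 as reported and 1 with 1-kb windows. The GC correction reversed the gene-body log2 ratio of Notch1 to -0.26, of Jag2 to -0.34 and of Hey1 to -0.11, none past the test. Of 161 recomputed ratios of single members 146 kept their direction and side of the threshold or moved within counting error. This tally is a weak check, because wide intervals at few tags let a change of sign count as kept. Many entries also could not move. A changed tag minimum leaves the ratio as it is, and members whose coding start is the gene 5′ end kept the same window. The promoter log2 ratio of Jag1 went from 0.33 to -1.004 with the GC correction, and that of Notch4 from -0.73 to 1.18 within 2.5 kb. For promoter against gene body, the GC-corrected ratios kept the uncorrected p-values and so could not change side. Depth also limits the promoters: at 3.62 anti-FLAG tags per kb genome-wide, 8 of 10 member promoters held fewer than 20 tags, and a GC correction from distant windows assumes that promoters respond to GC as those windows do.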
